A study of Homo sapiens with 33 samples.

Results

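Peaks of HA-tagged MITF, the lineage transcription factor of melanocytes, were described at 4 genes for receptors on the melanocyte surface: MC1R, EDNRB, KIT and ERBB3. The 4 genes are 4 of the 19974 protein-coding genes of the RefSeq table for GRCh38.p14. A peak was given to a gene when its summit lay inside the RefSeq span of the gene extended by 10000 bp on both sides. In these windows lay 33 of the 90645 sites (windows reaching 250 bp to each side of a summit, without overlap) that were tested across the libraries. Of the 33 sites, 14 belonged to EDNRB, 7 to MC1R, 6 to KIT and 6 to ERBB3.

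The data are 33 CUT&Tag peak lists from UACC-257, an established human melanoma line. CUT&Tag cuts and tags chromatin next to an antibody, here against the HA tag. Every library came from cells with the genotype MITF knockdown that were treated with doxycycline, so both were shared by controls and variants alike. The titles name 11 groups of 3 libraries: WT, the 9 variants of MITF (A264C, E260A, Q261A, N278D, Y253A, K243A, G244E, rep217A, rep263A) and Empty. The labels do not spell out rep217A, rep263A or Empty; the first pair was counted among the variants because of how the titles name them. Replicates 2 and 3 of rep217A held identical lists, as did those of rep263A, and each pair was counted as 1 library (31 distinct libraries, n = 2 in these groups and n = 3 in the others). A single cell line was used. Whether the replicates were grown apart is not in the labels, so p-values measure the spread between these libraries only.

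The 4 receptors are how a melanocyte and its precursors read their surroundings. MC1R and EDNRB are receptors coupled to G proteins: MC1R binds melanocortins, raises cyclic AMP and shifts pigment from red to brown and black, and EDNRB binds endothelins and is needed by neural crest cells that become melanocytes. KIT and ERBB3 are receptor tyrosine kinases: KIT binds stem cell factor and is required for the survival and migration of melanoblasts, and ERBB3 binds neuregulins and signals through partners such as ERBB2, since its own kinase is weak. MITF binds E-box motifs as a dimer, the best known being CACGTG, and also takes the variant CATGTG.

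The 250 bases before the annotated start sites are shown because 2 of the 3 receptors searched (MC1R, EDNRB and KIT) carry an MITF-type motif there. The ERBB3 promoter was not analysed here. Neighbouring genes are shown because the strongest peak of the window often lay at the start of one. This was so in 29 of 31 distinct libraries at MC1R and in 20 at ERBB3. Each sequence is from RefSeq GRCh38.p14, 5′ to 3′ on the strand of the gene, and capitals mark CATGTG in either orientation. The MC1R stretch is chr16:89918612-89918861 on the plus strand, the EDNRB stretch chr13:77919683-77919932 on the minus strand, and the KIT stretch chr4:54657707-54657956 on the plus strand. TUBB3, a neuronal tubulin gene next to MC1R, is shown at chr16:89921675-89921924, and PA2G4, a growth regulator gene next to ERBB3, at chr12:56104309-56104558, both on the plus strand.
MC1R: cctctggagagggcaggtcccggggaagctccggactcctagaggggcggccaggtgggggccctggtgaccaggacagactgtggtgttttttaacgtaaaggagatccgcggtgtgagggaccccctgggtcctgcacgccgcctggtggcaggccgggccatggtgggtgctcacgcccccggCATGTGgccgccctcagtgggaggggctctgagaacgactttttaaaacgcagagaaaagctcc
EDNRB: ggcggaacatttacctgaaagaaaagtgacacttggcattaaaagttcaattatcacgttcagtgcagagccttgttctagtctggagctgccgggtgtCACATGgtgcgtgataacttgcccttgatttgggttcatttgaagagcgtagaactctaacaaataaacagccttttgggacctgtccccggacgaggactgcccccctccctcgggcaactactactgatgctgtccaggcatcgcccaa
KIT: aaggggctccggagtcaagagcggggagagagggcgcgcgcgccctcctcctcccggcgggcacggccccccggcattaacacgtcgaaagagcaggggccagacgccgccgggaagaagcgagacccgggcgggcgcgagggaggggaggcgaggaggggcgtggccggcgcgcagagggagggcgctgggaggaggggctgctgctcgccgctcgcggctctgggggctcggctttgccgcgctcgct
TUBB3: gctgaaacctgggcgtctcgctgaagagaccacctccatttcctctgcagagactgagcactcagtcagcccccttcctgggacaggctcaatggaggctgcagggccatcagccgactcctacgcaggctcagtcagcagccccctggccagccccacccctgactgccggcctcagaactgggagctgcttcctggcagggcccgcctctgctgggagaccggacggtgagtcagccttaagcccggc
PA2G4: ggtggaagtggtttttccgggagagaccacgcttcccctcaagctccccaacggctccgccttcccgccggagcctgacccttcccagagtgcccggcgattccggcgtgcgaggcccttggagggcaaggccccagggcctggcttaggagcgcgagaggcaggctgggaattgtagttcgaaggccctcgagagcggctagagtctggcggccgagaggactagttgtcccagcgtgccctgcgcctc

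CATGTG stood 64 bp before the start of MC1R and, as CACATG, 151 bp before the EDNRB start at 77919682. The motif CACGTG was searched in the same way, as was the general E-box (CANNTG), which covers both of the others, and every search used both strands. Among 35116 RefSeq promoters of this length, 6.34% held the motif CACGTG. The variant CATGTG was in 9.42% and the general E-box in 61.8%. The KIT, TUBB3 and PA2G4 stretches held none of the 3 motifs, nor did the stretch before a second EDNRB start at 77918831. A match is only a description of letters.

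Libraries differed in depth, and this touches every comparison below. Relative depth, recovered from the deposited peak values as the commonest background pileup, averaged 1.155 ± 0.0638 in WT (SD, n = 3) and 0.774 to 1.27 in A264C, E260A, Q261A, N278D and Y253A. It was 0.457 in rep263A, 0.312 in rep217A, 0.178 in K243A and 0.129 in G244E, and at most 0.03 in Empty. In the Empty lists 60.7% to 67.6% of peaks had a pileup of 1, so a high Empty percentile can rest on few fragments. In an alternative called thinned here, every library but those of Empty was reduced at random to a relative depth of 0.108. Lists held 81488 to 300000 peaks, so ranks within lists of unequal length are given as descriptions, and changes were tested on 2 scales of fixed length. The gene rank score is a normal score of a gene's place, within a library, among 19655 genes ordered by their best −log10 q. The site rank score is the same for the 90645 sites. Places are printed as percentiles, 100 being the strongest.

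The 4 genes stood at different heights. In the WT libraries EDNRB was at percentile 97.2 ± 0.64 (SD, n = 3), ERBB3 at 72.0 ± 0.74, MC1R at 67.5 ± 1.20 and KIT at 32.7 ± 2.78, without overlap between any of the genes. A peak among the 10000 strongest of its list was present at EDNRB in 31 of 31 distinct libraries, at MC1R in 30, at ERBB3 in 26 and at KIT in 1. EDNRB, MC1R and ERBB3 thus had such a peak in every WT library, as did 30.1% of all protein-coding genes. Peaks nearer to another gene supplied part of this: with them left out, a choice made after seeing the data, the numbers were 31 for EDNRB, 1 for MC1R, 17 for ERBB3 and 1 for KIT.

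**Figure D1:**
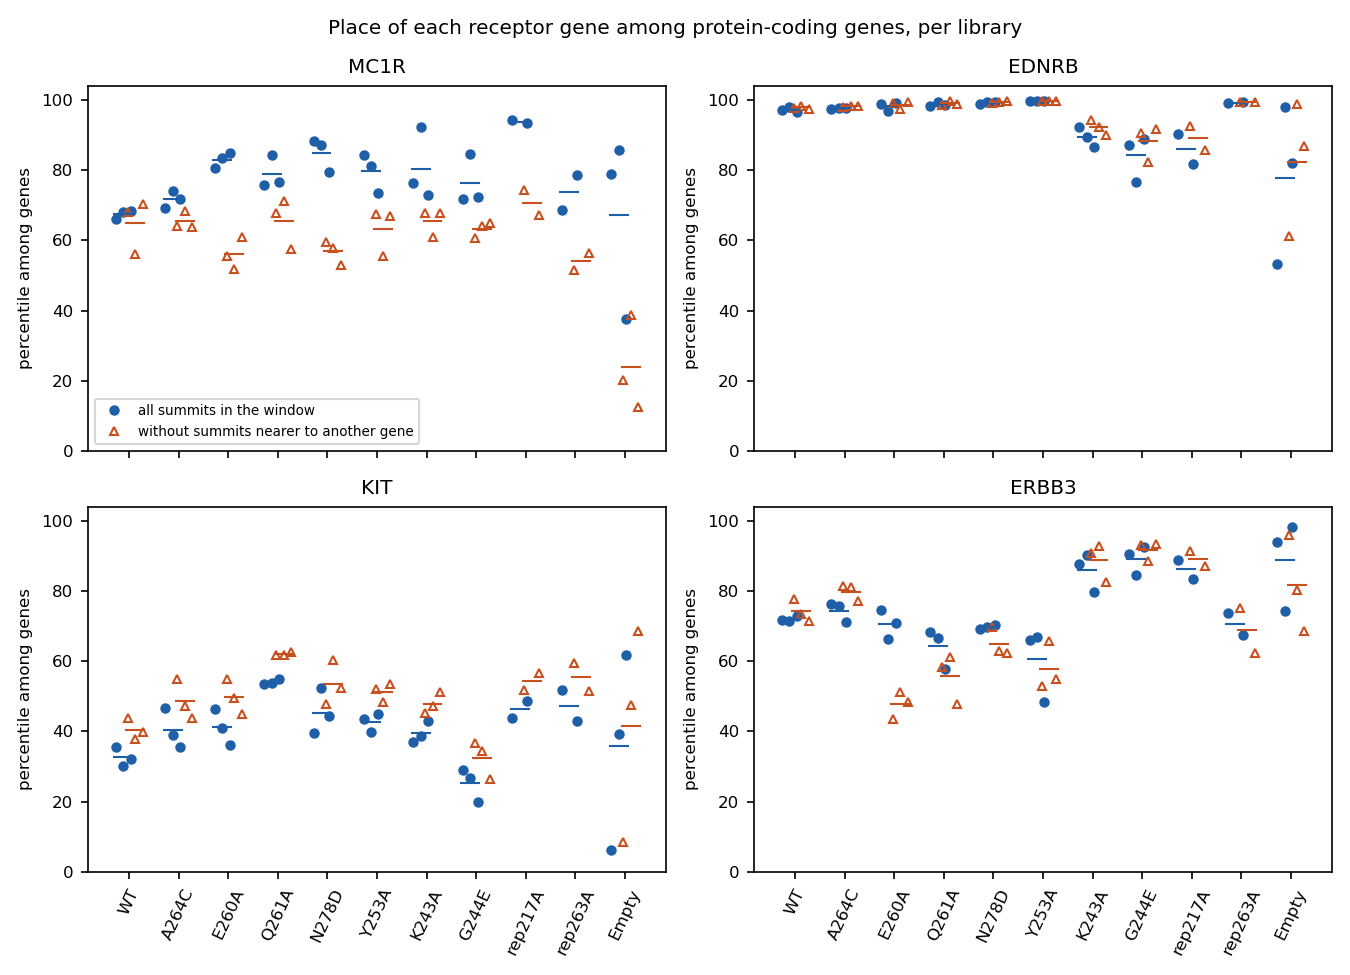
Percentile of each receptor gene among the protein-coding genes tested (vertical axis, 100 the strongest) in each distinct library of each group (horizontal axis); bars are group means. Filled circles use every summit in the window and open triangles leave out summits nearer to another gene; EDNRB is above 96 in all WT libraries, and the 2 series part most at MC1R.

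Over the 40 differences from WT at the level of the gene, 5 passed the test (limma on the rank score, Benjamini-Hochberg adjusted p under 0.05 over all genes of a contrast). EDNRB was lower in G244E, where 9.23% of all genes tested were lower, and in Empty, where 19.9% were. ERBB3 was higher in G244E, where 6.69% of genes were higher, and in Empty, where 22.6% were. MC1R was higher in rep217A, where 8.42% were. KIT passed in none of 10 contrasts, with 1 at an unadjusted p under 0.05 (Q261A, 0.0278). Asked whether WT and the 9 variants differed at all, a limma F test called EDNRB (adjusted p = 2.83e-05) and ERBB3 (0.00518) and not MC1R (0.0611) or KIT (0.292), against 37.3% of all genes. EDNRB was called by the F test under all 12 alternatives. ERBB3 was not called by fold (adjusted p = 0.0545), with peaks of −log10 q of at least 5 (0.0759) or without replicate 1 (0.352). MC1R was called under 6 of its 12 alternatives (adjusted p = 0.000117 to 0.0326), among them the replicate block (0.0326), and KIT under 3 of its 11 (2.35e-07 to 0.0392).

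**Figure D2:**
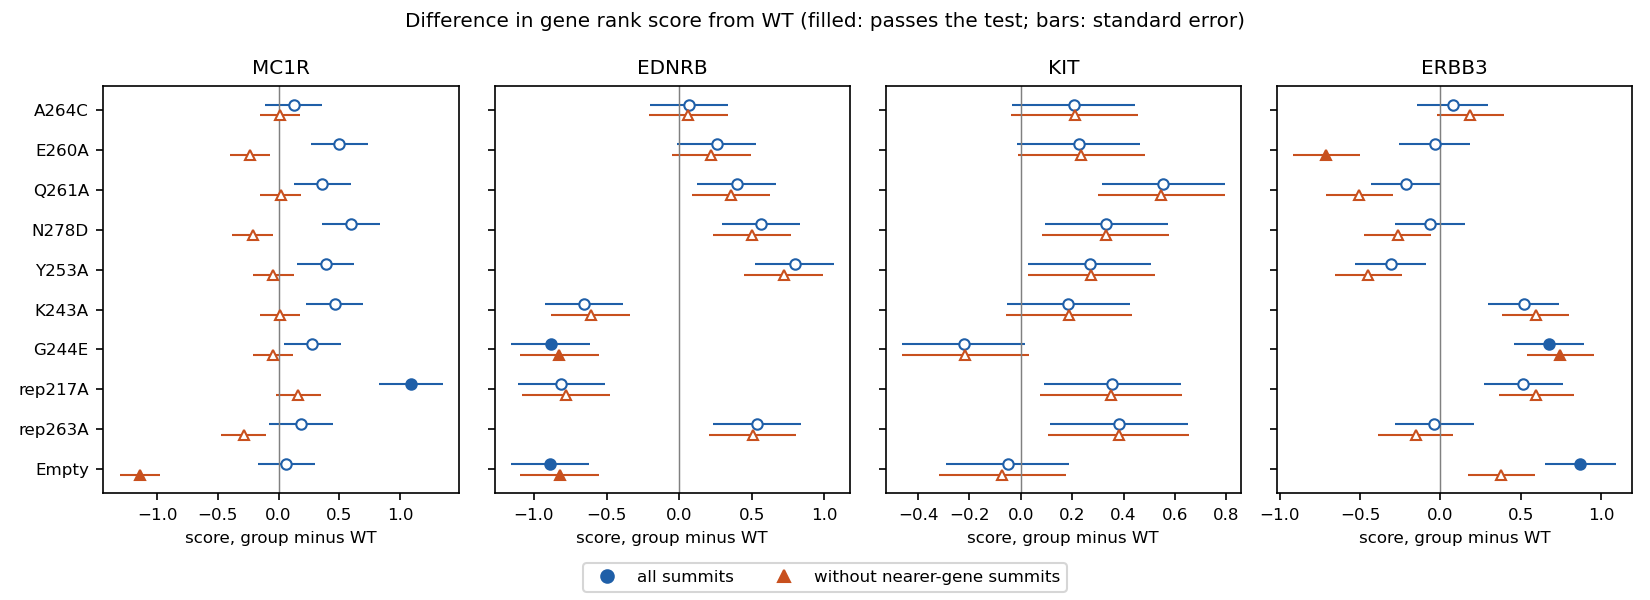
Difference of each group from WT in gene rank score (horizontal axis, normal score units; bars are standard errors) for the 4 genes, with circles for every summit and triangles without summits nearer to another gene. Filled symbols passed the test; the rep217A difference of MC1R is 1.09 as a circle and 0.16 as a triangle.

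At the level of single sites, 39 of 330 differences from WT passed the adjusted threshold. In 5 of them the site was higher in a group where at least 1 library did not list it; an unlisted site takes the mean of the tied lowest places, so these were not counted. This rule, chosen after the data were seen, left 34, of which 20 were lower and 14 higher. To be tested, a site had to reach a −log10 q of 5 or more in each library of some group. The WT libraries did not do so at 8 of the 33 sites, which gave 10 of the 14 higher calls, so these sites entered through variants alone. In E260A, 4 of 33 sites were lower and 1 higher, against 8.93% and 13.2% of all sites. In G244E the counts were 4 and 1 (9.99% and 3.06%), in rep217A 4 and 4 (9.35% and 6.14%), in Empty 5 and 1 (17.4% and 2.07%), in N278D 1 and 3 (3.61% and 7.08%), and in Q261A 1 and 2 (1.54% and 5.14%). K243A had 1 site lower (3.91%) and none higher (0.912%), while Y253A and rep263A had 1 site higher each (9.87% and 1.41%) and none lower (4.86% of all sites in Y253A and 0.499% in rep263A). A264C had none in either direction (0.0364% and 0.192%), and none at the level of the gene (0.0% of genes lower and 0.0% higher), with unadjusted gene-level p-values of 0.397 to 0.802. At the level of the gene, rep263A had no call among the 4 genes either (0.102% lower and 0.132% higher). The limma F test called 8 of 14 EDNRB sites, 4 of 7 MC1R sites, 2 of 6 KIT sites and 2 of 6 ERBB3 sites, against 55.6% of all sites. Some of these called sites did not enter through WT: KIT 54461 and EDNRB 73253, 51213, -3685 and -4310 (bp from the low-coordinate end of the gene). KIT 54461 entered only through N278D, where it is high, so these counts are descriptions.

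**Figure D3:**
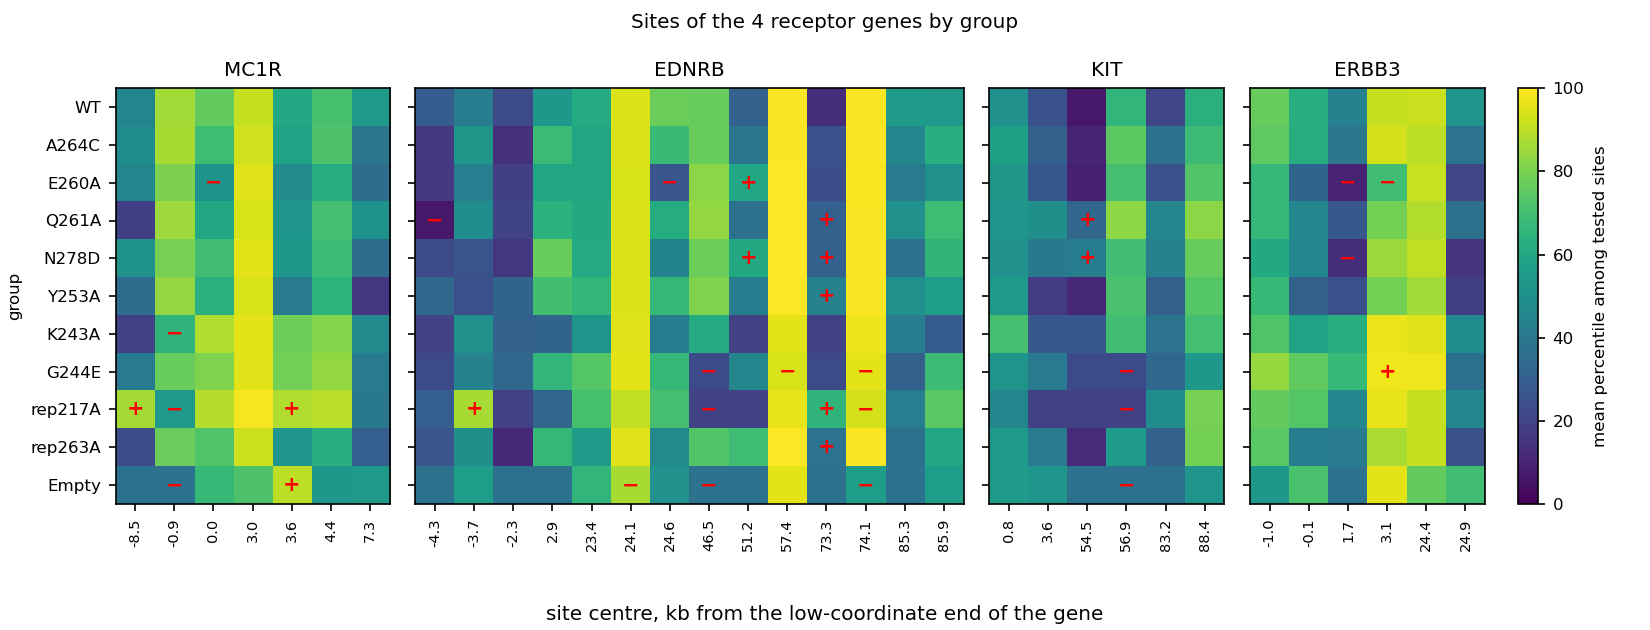
Mean percentile among tested sites (colour) of the 33 sites (columns, distance of the site's centre in kb from the low-coordinate end of its gene) in the 11 groups. A minus or plus marks a site lower or higher than in WT by the test; sites a library did not list carry the tied place described in the text, and the EDNRB sites at 57.4 and 74.1 kb are bright in WT and all variants.

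MC1R spans chr16:89918862-89920972 and is flanked by close neighbours. Of its 7 sites, 5 lay nearer to another gene, and 1 lay inside MC1R. Sites are named here by the distance in bp of their centre from the low-coordinate end of the gene. The best peak of the window was at site 2993 in 29 of 31 libraries; this site (chr16:89921605-89922105) is centred 70 bp before the TUBB3 start. At it, the WT libraries gave ranks of 9674, 9111 and 9128 with fold enrichments of 5.84, 5.81 and 5.63 over the local background, the authors' values. The rep217A libraries gave ranks of 1322 and 1651 with folds of 8.14 and 7.50. All WT percentiles of the gene (66.1, 68.0 and 68.3) were below both of rep217A (94.3 and 93.4).

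That difference was 1.09 ± 0.26 in rank score (standard error, limma adjusted p = 0.00356). It fell to 0.16 ± 0.19 (adjusted p = 0.650, where 7.33% of genes were higher) once summits nearer to another gene were left out, and lost its call without replicate 1 (1.03, adjusted p = 0.172) or replicate 2 (1.13, 0.0503). The other 8 variants also had all libraries above those of WT, by 0.12 to 0.60, none passing the test. The share of all genes with such a pattern was not computed. Once summits nearer to another gene were left out, all 8 overlapped WT, with differences of -0.28 (rep263A) to 0.018 (Q261A). In Empty, MC1R was at 78.8, 85.7 and 37.5, with best peaks on pileups of 10, 9 and 5, and these percentiles enclosed those of WT. Without summits nearer to another gene, Empty was at 20.3, 38.7 and 12.6 against 68.1, 56.1 and 70.4 in WT, lower by 1.14 ± 0.17 in score, without overlap (limma adjusted p = 5.76e-06, where 19.1% of genes were lower).

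The MC1R promoter itself is covered by site 15 (chr16:89918627-89919127), which holds the CATGTG shown above. Its WT percentiles were 75.0, 76.5 and 76.4 on pileups of 151, 147 and 156 fragments. In E260A they were 44.1, 49.4 and 59.8, below all of WT, a difference of -0.68 ± 0.25 (limma adjusted p = 0.0474). This call was lost under 6 of 9 alternatives: thinned (-0.51, adjusted p = 0.28), by fold (-0.72, 0.0549), with the replicate block (0.0575) and without any 1 replicate (-0.61 to -0.78, 0.0523 to 0.235). In K243A the site stood at 89.6, 86.2 and 89.0 and in rep217A at 90.7 and 87.0, above WT without passing the test. Both are shallow groups, on pileups of 35 to 66.

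Site -903 (chr16:89917709-89918209), 903 bp before MC1R and inside the predicted gene LOC124903759, was the stronger of the pair nearest to MC1R in WT. It stood at 88.2, 81.1 and 89.5 there, and at 76.4 to 88.7 in A264C, E260A, Q261A, N278D and Y253A. It was at 58.7 and 48.3 in rep217A, lower by 1.02 ± 0.22 (limma adjusted p = 0.00126), and at 59.0, 56.2 and 79.4 in K243A, lower by 0.70 ± 0.19 (0.0265). No Empty library listed it (limma adjusted p = 2.71e-06). When sites were ranked by fold in place of q, none of the 3 differences passed: the score difference became -0.04 in rep217A, 0.22 in K243A and -0.09 in Empty. In rep217A, K243A and Empty the depth was lowest or among the lowest, and its part in the result was not tested beyond thinning. After thinning, rep217A (-0.99, limma adjusted p = 0.0124) still passed and K243A (-0.55, 0.234) did not. Empty passed against the thinned WT (-1.30, 0.000164), but was not thinned itself, so its depth was not matched. The K243A call was also lost without any 1 replicate (adjusted p = 0.0531 to 0.24), and that of rep217A without replicate 2 (0.0633). Site -8452, inside TCF25, was higher in rep217A at 89.9 and 83.5 against 44.3 to 49.6 in WT (1.23 ± 0.39, limma adjusted p = 0.0298), a call lost without replicate 1, 2 or 3 (adjusted p = 0.0717 to 0.163).

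EDNRB, on chr13:77895487-77975527 and on the minus strand, held the strongest peaks of the 4 genes and 22 to 27 summits in each WT library. Its best peak was at site 57355 (chr13:77952592-77953092) in 21 libraries and at site 74067 (chr13:77969304-77969804) in 8. Both lie inside the RefSeq span, upstream of the start sites at 77919682 and 77918831. In WT the best EDNRB peak ranked 578, 411 and 677 in its list, with folds of 30.1, 27.3 and 25.1. In Y253A it ranked 95, 90 and 58 with folds of 32.3, 31.9 and 31.6, and in N278D 270, 126 and 123. In rep263A it ranked 194 and 133. In K243A the ranks were 1509, 2084 and 2926, in rep217A 2374 and 4903, and in G244E 2481, 5023 and 2175 with folds of 16.3, 8.55 and 15.7.

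The gene percentile rests on the same best peaks, placed among all genes tested in a library. Y253A lay highest at 99.6, 99.6 and 99.7, above all other groups, with a score 0.80 ± 0.27 above WT that did not pass the test (limma adjusted p = 0.0842). N278D, rep263A and Q261A also lay above all WT libraries, at 0.40 to 0.56 in score, and did not pass. K243A at 92.2, 89.4 and 86.7 (-0.66, adjusted p = 0.184) and rep217A at 90.3 and 81.8 (-0.81, 0.0609) lay below all WT libraries without passing. G244E was at 87.3, 76.7 and 88.9, lower by 0.89 ± 0.27 (limma adjusted p = 0.0232). That call was lost when any 1 replicate was left out in every group (-0.68 to -1.03, adjusted p = 0.0698 to 0.108) and with spans not extended (-0.71, 0.0838). It held thinned (-0.91, 0.0223) and without summits nearer to another gene (-0.82, 0.0414, where 8.21% of genes were lower). Empty was at 53.3, 98.1 and 82.1, with best peaks on pileups of 2, 7 and 3. It was lower by 0.89 ± 0.27 (limma adjusted p = 0.00913) although its libraries enclosed those of WT. Without replicate 1 the difference was -0.43 (adjusted p = 0.280) and without replicate 3 it was -0.88 (0.0939).

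Site 46491 (chr13:77941728-77942228) was absent from the lists of 3 groups. Its WT percentiles were 82.3, 72.5 and 75.5 on pileups of 66, 42 and 52. In A264C, E260A, Q261A, N278D, Y253A and rep263A it was listed in every library, at 69.9 to 85.3. No library of G244E, rep217A or Empty listed it. It was lower in all 3, with score differences of -1.498 ± 0.17 in G244E, -1.61 ± 0.19 in rep217A and -1.06 ± 0.17 in Empty (limma adjusted p = 7.07e-07, 5.62e-07 and 2e-05). Each passed under all 9 alternatives run for it, thinning among them (-1.43, limma adjusted p = 0.000177 in G244E), though Empty itself was not thinned. Leaving out replicate 1 or 2 left 1 distinct library of rep217A. K243A, another shallow group, listed it in 3 of 3 libraries at 54.3, 56.2 and 73.5 on pileups of 3, 3 and 8.

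Sites 57355 and 74067, the strongest of EDNRB, were listed in every library of WT and the variants. All Empty libraries listed site 57355 too, at 90.7, 99.7 and 96.9 on pileups of 2, 7 and 3. That difference from WT did not pass (-0.48, limma adjusted p = 0.142). Site 57355 stood at 99.3 to 99.4 in WT and at 97.6, 88.2 and 96.0 in G244E, lower by 0.83 ± 0.26 (limma adjusted p = 0.0226), a call lost under 5 of 9 alternatives: thinned (-0.83, 0.0611), with peaks of −log10 q of at least 5 (0.105) and without any 1 replicate (-0.62 to -0.98, 0.0614 to 0.123). Site 74067 stood at 99.3 to 99.6 in WT. It was at 92.2 and 94.6 in rep217A, lower by 1.03 ± 0.30 (limma adjusted p = 0.0172), and at 95.0, 94.9 and 98.0 in G244E, lower by 0.77 ± 0.27 (0.0447). The G244E call was lost thinned (-0.70, adjusted p = 0.128), with the replicate block (0.0524) and without replicate 2 (-0.65, 0.307) or replicate 3 (-0.94, 0.101). Of the Empty libraries 1 listed site 74067, on a pileup of 2, and the difference of -2.30 ± 0.27 (limma adjusted p = 3.12e-07) passed under every alternative run for it. Without replicate 2 or replicate 3 the rep217A difference was -1.08 and -1.07 (adjusted p = 0.194 and 0.0595).

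Site 24054 (chr13:77919291-77919791), which spans the EDNRB start at 77919682, stood high with every MITF protein. It was listed in all 31 libraries, at 94.1 to 95.0 in WT and at 89.6 to 97.0 in the variants, and the F test did not call it (adjusted p = 0.793). Empty stood at 90.7, 83.5 and 87.0, on pileups of 4, 2 and 2. It was lower by 0.47 ± 0.16 (limma adjusted p = 0.0238) by q and higher by 0.50 when ranked by fold (0.0358). The lower call was lost thinned (adjusted p = 0.161) and without replicate 2 (0.178) or replicate 3 (0.113). A weak site went the other way. Site 73253 (chr13:77968490-77968990) was listed in 1 of 3 WT libraries at 26.3, and entered the test through A264C, N278D and Y253A. The p-values of N278D and Y253A thus come from groups that admitted the site, and are given as a description, not as support. Site 73253 was at 36.6, 41.3 and 52.6 in Y253A, higher by 1.05 ± 0.21 (limma adjusted p = 0.00103). In rep217A it was at 59.3 and 71.2, higher by 1.61 ± 0.24 (1.72e-05). Q261A (0.70, adjusted p = 0.0433), N278D (0.72, 0.0262) and rep263A (0.91, 0.0412) also passed. Thinned, only rep217A did (1.49, adjusted p = 0.00534; 0.173 to 0.700 for the other 4), and with peaks of −log10 q of at least 5 the rep217A site was not listed in every library. Of 9 alternatives the call was lost under 4 in Y253A, 5 in N278D, 7 in Q261A, 7 in rep263A and 1 in rep217A.

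**Figure D4:**
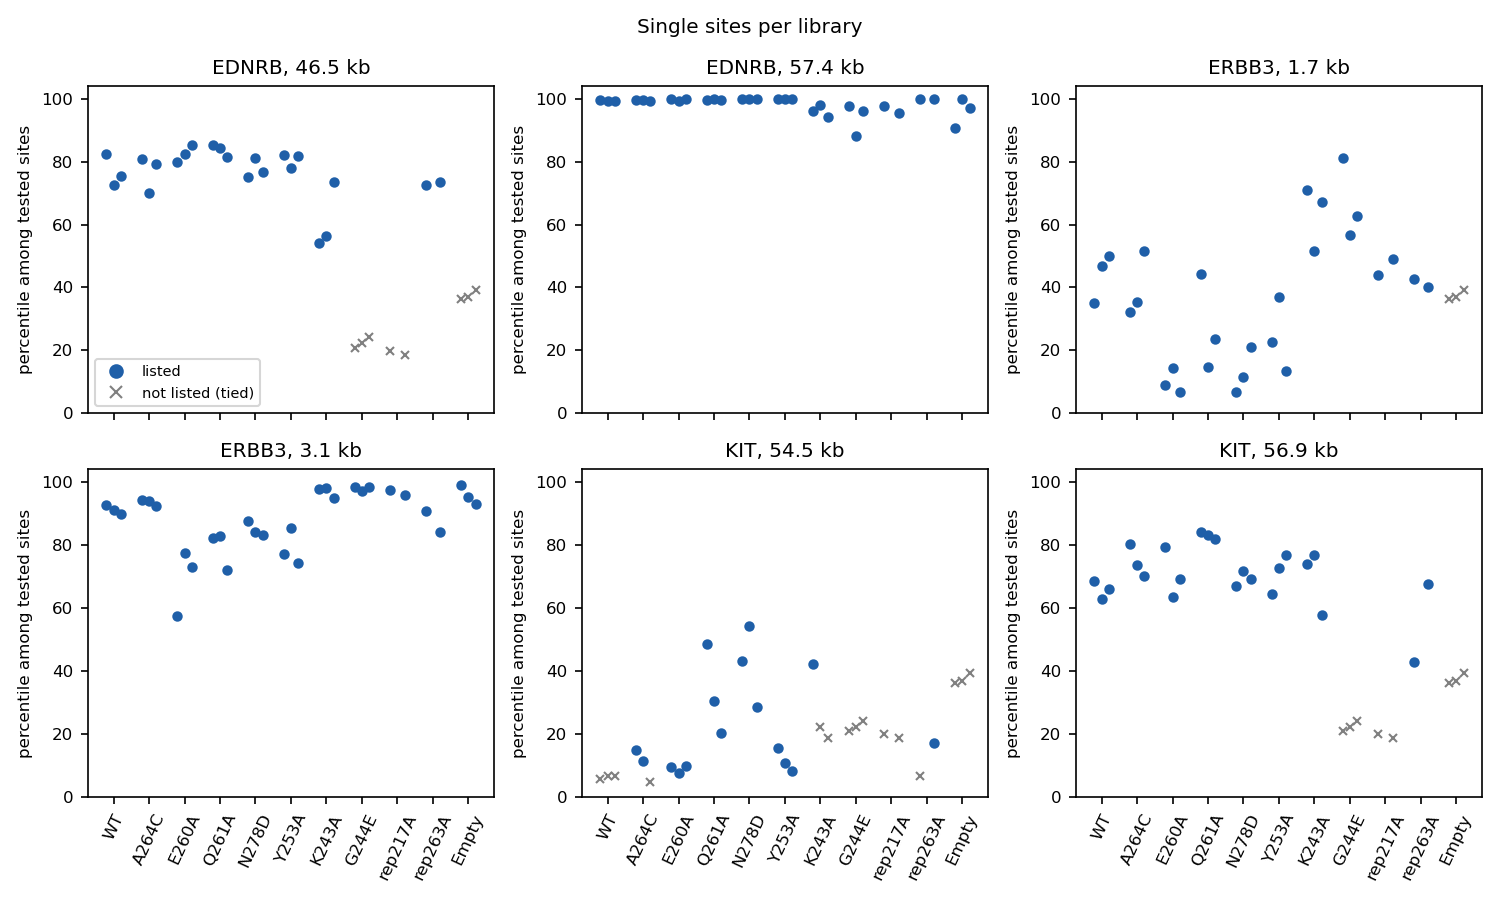
Percentile among tested sites (vertical axis) in each distinct library of each group (horizontal axis) for the 6 named sites with the lowest F-test p, given by gene and distance of the centre from its low-coordinate end. The KIT site at 54.5 kb entered the test only through N278D, so its panel is a description. Crosses are libraries that did not list the site; at EDNRB 46.5 kb and KIT 56.9 kb all libraries of G244E, rep217A and Empty are crosses, and at ERBB3 1.7 kb all E260A libraries lie below all WT libraries.

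KIT, on the plus strand at chr4:54657957-54740715, was the weakest of the 4. Its best peak ranked 32010, 42058 and 39549 in WT with folds of 13.4, 11.1 and 11.9, and 16113, 16892 and 17871 in Q261A with folds of 17.5, 18.01 and 16.2. In G244E the best peak ranked 38107, 40609 and 60523, with pileups of 4, 3 and 3. Empty replicate 1 listed no summit in the window. The best peak was at site 88416, 5658 bp past the 3′ end of the gene, in 15 libraries, and at site 56904 inside the gene in 11. Q261A had the highest gene percentiles, 53.6, 53.9 and 55.0 against 35.7, 30.2 and 32.1 in WT. The groups did not overlap, and the difference of 0.55 ± 0.24 did not pass the test (limma adjusted p = 0.331).

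At KIT, as at EDNRB, an internal site went unlisted in the same 3 groups. Site 56904 (chr4:54714611-54715111) stood at 68.6, 62.8 and 65.9 in WT on pileups of 32, 24 and 27, and at 82.0 to 84.3 in Q261A. It was unlisted in every library of G244E, rep217A and Empty (-1.17 ± 0.18, -1.28 ± 0.21 and -0.73 ± 0.18, limma adjusted p = 7.45e-05, 5.95e-05 and 0.00289). The Empty call was lost with peaks of −log10 q of at least 5 (0.0795). All K243A libraries listed it at 74.0, 76.7 and 57.7, on pileups of 5, 6 and 5. Site 54461 (chr4:54712168-54712668), also inside the gene, was listed in no WT library. It was listed in every library of Q261A, at 48.6, 30.4 and 20.2, and of N278D, at 43.3, 54.2 and 28.6. It entered the test only through N278D, where it is high. The score differences of these 2 groups, 1.07 ± 0.22 and 1.32 ± 0.22, are thus given as a description, with no test. They are among the 14 higher counts, and the site is among the 2 KIT sites called by the F test. Site 835 (chr4:54658542-54659042), just inside the start of KIT, stood at 41.1 to 58.9 in WT and did not pass in any contrast or in the F test (adjusted p = 0.817).

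ERBB3 lies on chr12:56080108-56103505. Its best peak was at site 24361 in 20 libraries and at site 3055 in 11. Site 24361 (chr12:56104219-56104719) is centred 964 bp past the ERBB3 span and 90 bp before the PA2G4 start, and was the only named site of the gene, besides -992, that the F test did not call (adjusted p = 0.555 and 0.530). In WT it stood at 89.9, 92.6 and 93.2. Site 3055 (chr12:56082913-56083413), inside ERBB3, stood at 92.6, 91.0 and 90.0 in WT with folds of 10.7, 9.39 and 8.88.

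In E260A the internal site 3055 was at 57.4, 77.4 and 73.1, lower by 0.84 ± 0.21 (limma adjusted p = 0.00436; -0.93, 0.0302 thinned). Ranked by fold, the E260A difference was -0.46 (adjusted p = 0.144), and without replicate 1 it was -0.63 (0.0874). It also missed the threshold with peaks of −log10 q of at least 5 (0.0709). Site 1709 (chr12:56081567-56082067), a weak site at 35.0, 46.7 and 50.2 in WT, was at 9.0, 14.4 and 6.8 in E260A, lower by 1.14 ± 0.25 (limma adjusted p = 0.00115), and passed under all 9 alternatives run for it. N278D was at 6.9, 11.6 and 21.0, lower by 1.01 ± 0.25 (0.00779), without passing when replicate 1 (-0.96, 0.0742) or 2 (-0.95, 0.0975) was left out. E260A and N278D did not overlap WT at site 1709, and both were listed in every library. The PA2G4-side site did not follow: E260A stood at 93.0, 90.3 and 91.5 there.

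G244E showed the reverse at site 3055, at 98.3, 97.2 and 98.4, higher by 0.70 ± 0.21 (limma adjusted p = 0.0196). The call was lost thinned (0.80, adjusted p = 0.0833), with peaks of −log10 q of at least 5 (0.111) and when any replicate was left out (0.62 to 0.77, 0.0639 to 0.131). K243A at 97.6, 98.2 and 95.0 and rep217A at 97.3 and 95.8 were also above all WT libraries, without passing. So were all Empty libraries at 99.1, 95.2 and 93.2, on pileups of only 9, 6 and 4, also without passing. All 4 of these groups were shallower than WT.

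The gene score of ERBB3 mixed the internal and the PA2G4-side peaks. With every summit, G244E was at 90.5, 84.7 and 92.5 against 71.7, 71.4 and 72.8 in WT, higher by 0.68 ± 0.22 (limma adjusted p = 0.0341). This was lost without replicate 1 (0.64, adjusted p = 0.294) or replicate 3 (0.60, 0.0913), with ranking by fold (0.50, 0.170), and with peaks of −log10 q of at least 5 (0.68, 0.0776). Empty was at 94.1, 74.5 and 98.4, with best peaks on pileups of 9, 6 and 9, higher by 0.87 ± 0.22 (limma adjusted p = 0.00224). That call was lost under 5 of 12 alternatives, among them peaks of −log10 q of at least 5 (0.63, adjusted p = 0.0731), spans not extended (0.32, 0.238), without replicate 1 (0.81, 0.084) and without replicate 3 (0.54, 0.0649). Without summits nearer to another gene, Empty was higher by 0.38 ± 0.21 (0.149), G244E by 0.75 ± 0.21 (0.0167, where 5.42% of genes were higher), and E260A became lower, by 0.71 ± 0.21 (0.0393, where 2.31% were lower). E260A then stood at 43.4, 51.3 and 48.4 against 77.6, 73.6 and 71.4 in WT, and the F test gave an adjusted p of 1.09e-05 (31.4% of genes called).

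The order of groups differed between the 4 genes. By mean percentile with every summit, the highest group was rep217A for MC1R (93.8), Y253A for EDNRB (99.7), Q261A for KIT (54.2) and G244E for ERBB3 (89.2). The lowest group was Empty for MC1R (67.3, with WT at 67.5) and EDNRB (77.8), G244E for KIT (25.3) and Y253A for ERBB3 (60.6). Of the 10 pairs of neighbours in each order, 2 did not overlap at each gene: rep217A over N278D and A264C over WT at MC1R, Y253A over N278D and WT over K243A at EDNRB, Q261A over rep263A and WT over G244E at KIT, and K243A over A264C and N278D over Q261A at ERBB3. All other neighbours overlapped. How often neighbours fail to overlap over all genes was not computed, so these counts are descriptions only. Leaving out summits nearer to another gene changed the order. At ERBB3, 0 pairs were then apart, and the lowest group was E260A (47.7). At MC1R, the pairs apart became G244E over N278D and rep263A over Empty.

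Genes around these receptors were counted by list, using every summit in the windows. Of 8 genes for ligands (POMC, ASIP, EDN1, EDN3, KITLG, NRG1, NRG2 and NRG4), 2 were higher in E260A (4.75% of all genes), 1 in Q261A (1.43%) and 1 in Y253A (3.66%). In K243A 1 was lower (2.43%), in G244E 2 (9.23%) and in rep217A 2 (9.65%). Medians in the same order were 0.06, 0.05, -0.06, -0.20, -0.17 and -0.18 against -0.02 to 0.05 over all genes. Most of these calls were of ASIP, which encodes agouti signalling protein, an antagonist at MC1R. ASIP stood at percentile 73.8 in WT and rose to 94.5 in E260A, 93.7 in Q261A and 89.4 in Y253A, and fell to 44.8 in K243A, 41.6 in G244E and 35.9 in rep217A (limma adjusted p = 0.00042, 0.0035, 0.0338, 0.0103, 0.000929 and 0.000431).

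Of 11 related receptors (MC2R to MC5R, EDNRA, PDGFRA, CSF1R, FLT3, EGFR, ERBB2 and ERBB4), 1 was lower in each of E260A (3.42% of all genes), Q261A (0.6%), N278D (2.53%), Y253A (1.89%), K243A (2.43%), G244E (9.23%) and rep217A (9.65%). It was ERBB2 each time. ERBB2, the partner of ERBB3, stood at 87.7 in WT and at 51.4 in E260A, 61.2 in Q261A, 64.2 in N278D, 60.6 in Y253A, 58.9 in K243A, 69.1 in G244E and 60.003 in rep217A (limma adjusted p from 0.000883 to 0.0360). In E260A and in N278D 1 related receptor was higher, EDNRA and CSF1R, where 4.75% and 3.65% of all genes were higher. A264C and rep263A had no call in this list, and their list medians were -0.02 and 0.00, as against 0.00 over all genes in both.

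Among 8 other receptors of melanoma cells (AXL, MET, MERTK, IGF1R, NGFR, FGFR1, KDR and TYRO3), at most 2 were called in a direction in any variant. In the variants and directions with such a call, 1.43% to 9.65% of all genes were called. MERTK, a TAM-family kinase, stood at 98.1 in WT, rose to 99.7 in Q261A, 99.8 in N278D and 99.9 in Y253A, and fell to 86.2 in G244E and 90.5 in rep217A (limma adjusted p = 0.0302, 0.00288, 0.00105, 0.000332 and 0.00846). Of 14 genes that carry the receptors' signals (GNAS, GNAQ, GNA11, ADCY9, PRKACA, PLCB4, GRB2, SOS1, PIK3CA, PIK3CB, CREB1, ECE1, CBL and SHC1), 1 was higher in Y253A (3.66% of all genes). In K243A 1 was lower (2.43%) and none was higher (0.951%), and in G244E 1 was lower (9.23%) and 1 higher (6.69%). PLCB4, a phospholipase downstream of Gq-coupled receptors such as EDNRB, was the gene higher in Y253A and lower in K243A and G244E. Calls were commonest over all genes in Empty, with 19.9% lower and 22.6% higher. There 2 ligands, 2 related receptors, 4 other receptors and 1 signal carrier were lower than in WT, and 1, 3, 3 and 5 were higher.

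Marker genes of cell types were counted as a description. A peak among the 10000 strongest lay at 6 of 8 melanocyte genes in every WT library, at 0 of 6 keratinocyte genes and at 1 of 6 fibroblast genes. Of all protein-coding genes, 30.1% had such a peak in every WT library and 28.8% in every Empty library. The same counts were 6 to 8, 2 to 5 and 1 to 3 in Empty, whose strongest peaks rest on few fragments. Of the melanocyte list (TYR, PMEL, MLANA, DCT, TYRP1, SOX10, SLC45A2 and MLPH), 4 were lower and 1 higher in G244E (9.23% and 6.69% of all genes) and likewise in Empty (19.9% and 22.6%), with medians of -0.47 and -0.62 in score against 0.05 and 0.08 over all genes. In rep217A 1 was lower and 2 were higher (9.65% and 8.42%), with a median of 0.42 against 0.01. In Y253A 2 were higher (3.66%), in E260A, Q261A and N278D 1 each (4.75%, 1.43% and 3.65%), and in K243A 1 was lower (2.43%). Peaks do not measure expression, so these counts do not test which cells were used. Of the keratinocyte genes, 1 was lower in rep217A (9.65% of all genes) and 3 were higher in Empty (22.6%), and none was called elsewhere. Of the fibroblast genes 1 was lower in each of G244E (9.23%), rep217A (9.65%) and Empty (19.9%). In Empty 2 were higher (22.6%), and 1 was higher in E260A (4.75%) and 1 in N278D (3.65%).

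The genes whose rank scores ran most like each receptor's over the 31 libraries, on other chromosomes or at least 1000000 bp away, were GGCT (Pearson r = 0.94), ITPR1 (0.93) and WNT4 (0.92) for EDNRB, and RRM2B (0.90), SMARCD2 (0.88) and RBM25 (0.88) for ERBB3. For KIT they were SLC11A2 (0.85), POGLUT2 (0.83) and WDSUB1 (0.81), and for MC1R TUBB2A (0.77), ABHD2 (0.77) and EEIG1 (0.76). All points share libraries and their depth, and these values are descriptions only.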

How the data were processed

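Libraries were CUT&Tag with an anti-HA antibody in UACC-257 cells, per the labels' protocols. Per the submitters' processing notes, bcl2fastq 2.20.0.422, Bowtie2 2.3.4.3, MACS2 and genome build hg38 were used; the parameters are not given in the sources used here. Each deposited list gives, per peak, the authors' fold enrichment (a linear ratio), −log10 p-value, −log10 q-value, a display score (not used) and the summit offset. Lists were called per library. Gene spans and promoters came from RefSeq GRCh38.p14, the same build; promoters matched for MC1R, KIT and EDNRB. The 4 members and all lists were chosen with earlier results of these data known.

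The best −log10 q per gene window, or per site of 250 bp to each side of a summit, was ranked within each library and turned into a normal score. Sites were taken strongest first without overlap and tested where every library of at least 1 group listed a peak of −log10 q of at least 5. limma 3.58.1 (R 4.3.3) was fitted over 11 groups and 31 distinct libraries, with a two-sided moderated test for each group minus WT, an F test over WT and the 9 variants, and Benjamini-Hochberg adjustment over all genes or sites at 0.05. All contrasts share the WT libraries. Pileup and background were recovered from fold and p as whole fragments. In the thinned alternative, libraries were reduced to a relative depth of 0.108, the shallowest outside Empty, in 5 draws, with Empty as deposited. Named sites were, per gene, the 3 of highest mean score and the site of the largest called change in each direction over all variants together. The largest change of a single variant can thus lie at a site not named. Named list genes were at most 3 per list and group, by size of change. For all list genes, only differences from every summit in the window are given, so how they hold under the alternatives is not shown. The scripts were tested on simulated data. Python 3.11.15, numpy 2.4.6, pandas 2.3.3 and scipy 1.17.1 were used. No total read count was used, and intervals for counting error were not computed.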

Additional observations from a re-analysis of the deposited data

How the results depend on the processing

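The count of 5 gene-level differences from WT was 8 with genes ranked by fold, 14 with peaks of −log10 q of at least 5, 3 with spans not extended, 5 with thinned libraries and 1 to 3 with a replicate left out in every group. The count of 2 genes in the F test was 4 with spans not extended and 1 to 3 with a replicate left out. The count of 34 site differences was 52 by fold, 19 with libraries other than Empty thinned, 22 with sites of 500 bp to each side and 12 to 25 with a replicate left out. The count of 88 best peaks among the 10000 strongest, of 124, was 52 with the 5000 strongest, 50 with spans not extended and 50 without summits nearer to another gene. The cause of these changes was not tested, except that fewer peaks, libraries or bases enter by construction.

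At gene level, deviations of same-numbered libraries had a median correlation of 3.87e-05 over 146 pairs (-0.07 to 0.22, 3 over 0.1). The median was -0.000415 over 290 pairs of different numbers. Of 31 libraries, 16 correlated best with their own number at gene level and 11 at site level. Whether the numbers pair the libraries was not tested. With the replicate block the counts were 5 and 3 at gene level and 32 at site level.

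Directions reversed as follows. With spans not extended, MC1R became -0.88 in E260A, -0.29 in N278D, -0.39 in G244E and -0.21 in Empty, and KIT -0.74 in rep217A and -0.028 in rep263A. Without summits nearer to another gene, MC1R became -0.23 in E260A, -0.21 in N278D, -0.046 in G244E and -1.14 in Empty. By fold, MC1R in N278D became -0.024, MC1R site -903 in K243A 0.22 and EDNRB site 24054 in Empty 0.50. With peaks of −log10 q of at least 5, Empty became -0.52 at MC1R and 0.38 at KIT. With a replicate left out, the difference ranged from -0.21 to 0.49 at MC1R and -0.46 to 0.50 at KIT in Empty, and from -0.099 to 0.019 at ERBB3 in E260A. KIT gave no value among genes with a peak in every library, since 1 Empty library lists none there. Differences of EDNRB site 46491 in G244E, rep217A and Empty, KIT site 56904 in G244E and rep217A, EDNRB site 74067 in Empty and ERBB3 site 1709 in E260A passed under all 9 alternatives run for each. Empty was not thinned, so its depth was never matched to that of WT. In 1 alternative the identical lists of rep217A and rep263A were counted separately. Leaving out replicate 1 or 2 left 1 distinct library in each of these groups, and leaving out replicate 3 removed none of theirs.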
